A study of Mus musculus with 12 samples.

Results

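RAW264 cells, a mouse macrophage line, were compared after 30 min with 100 ng/ml of lipopolysaccharide (LPS, a component of the outer membrane of Gram-negative bacteria) and in the untreated, basal state, by sequencing of poly(A) mRNA. The comparison takes the 2 LPS and the 2 basal mRNA libraries, 4 of the 12 libraries of the series, and 9277 of the 9621 listed genes, which passed a filter of 10 reads, taken at the median depth, in 2 or more of the mRNA libraries. The other libraries are the mRNA of cells given LPS and 10 µM dexamethasone (LPS+DEX), and ribosome footprints (ribosome-protected mRNA fragments) of the same treatments. The LPS+DEX mRNA enters the filter, the estimate of the spread and the median-of-ratios scaling described below, but not the contrast itself. Each group holds 2 independent biological replicates, and every culture, the basal ones included, was exposed to cycloheximide at 100 µg/ml before extraction. All libraries come from 1 cell line.

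LPS is sensed by TLR4 with CD14 and MD-2 at the macrophage surface, and the adaptors MyD88 and TRIF pass the signal to the IKK complex, which frees NF-κB from its IκB inhibitors, and to the MAP kinases. Within minutes this starts transcription of primary response genes, which need no new protein: cytokines and chemokines, AP-1 and EGR transcription factors, and the feedback genes that later end the response, such as IκB proteins, A20, MAP kinase phosphatases and mRNA decay factors. Many of these mRNAs are short-lived, so that their level follows transcription closely. Interferon-stimulated genes and genes such as Nos2 belong to a later, secondary wave in macrophages.

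The LPS libraries held 1692014 and 2276336 reads and the basal libraries 1475120 and 1847359 reads, so that 3 reads were worth 1.77 and 1.32 counts per 1000000 reads (CPM) with LPS and 2.03 and 1.62 CPM in basal cells. Levels below are CPM, not scaled to gene length, and are given for replicates 1 and 2 in that order. Of 16 macrophage markers 15 were listed, and none of the 15 was at 0 in any of the 4 libraries. Their summed level was 7754 and 7146 CPM in LPS-treated cells and 7184 and 7629.8 CPM in basal cells. Of these 15 markers 2 were called higher and 1 lower, with a median log2 fold change of 0.00. The library of basal replicate 1 stood apart, with Spearman correlations across genes of 0.781 to 0.831 with the other mRNA libraries, against 0.894 to 0.98 among those. It alone held 81 genes at 50 CPM or more whose level was 5 CPM or less in each other mRNA library. The 2 listed of 12 epithelial markers, Krt7 and Ddr1, summed to 4.14 and 6.15 CPM with LPS, against 2032 and 2.17 CPM in basal cells. The 2 listed of 10 kidney and endocrine markers summed to 0.591 and 3.51 CPM with LPS, against 456 and 0 CPM in basal cells. Together the 81 genes held 14945 CPM of basal replicate 1, and 1 of them passed the filter and none was called. With 5 CPM or less elsewhere, nearly all had to fail the filter of 4.87 CPM in 2 libraries. The lack of calls among them therefore says nothing about other genes. Of 12 fibroblast and muscle markers 2 were listed, with sums of 67.4 and 87.9 CPM with LPS, against 43.4 and 31.9 CPM in basal cells, and of these Col3a1, a fibrillar collagen, was called higher (2.52), though not with median-of-ratios scaling of all libraries. Endothelial markers (3 of 8 listed) and neural markers (4 of 10) overlapped between the groups in their sums, and no lymphocyte, erythroid, neutrophil or mast cell marker was listed. Single members differed in basal replicate 1. Tek had 27.8 CPM there, against 5.93 CPM or less in each other mRNA library, and Snap25 25.1 CPM, against 1.32 CPM or less. Tubb3 was also highest there (20.3 CPM), Map2, Vwf and Egfl7 were lowest there, and Mbp lay among the others. Counts over all genes are therefore also given without that library, and with median-of-ratios scaling, which sets the median gene rather than the total reads equal between libraries. The part of the markers of other cell types in single results was not tested.

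On log2(CPM + 1), limma called 838 genes higher and 156 lower in LPS-treated than in basal cells at an adjusted p under 0.05, which is 9.03% and 1.68% of the 9277 tested. The split depended on the scaling. The median log2 fold change of all genes was 0.26, with 68.4% of the genes above 0, and median-of-ratios scaling, which lowered the median change by 0.25, gave 184 higher (1.98%) and 317 lower (3.42%). Without basal replicate 1 the counts were 730 higher (7.87%) and 133 lower (1.43%), and with both alterations together 347 higher (3.74%) and 429 lower (4.62%). None of the 994 calls changed sign in any of these settings. A gene called the same way in all 4 (total-read scaling, median-of-ratios scaling, and each of them without basal replicate 1) is described below as called in all 4 settings. This holds for 153 higher genes, 1.65% of those tested, and for 98 lower genes, 1.06%. The 2 directions differed in size. The 153 higher genes had a median log2 fold change of 1.36, and 144, 32 and 10 of them exceeded 1, 2 and 3 on the log2 scale. The 98 lower genes had a median of -0.76, and 9 of them lay under -1 and 0 under -2. The groups failed to overlap, with both LPS libraries above both basal libraries, for 46.7% of all genes tested, and with both below for 14.2%, so that separation of the groups is by itself no mark of a gene.

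**Figure D1:**
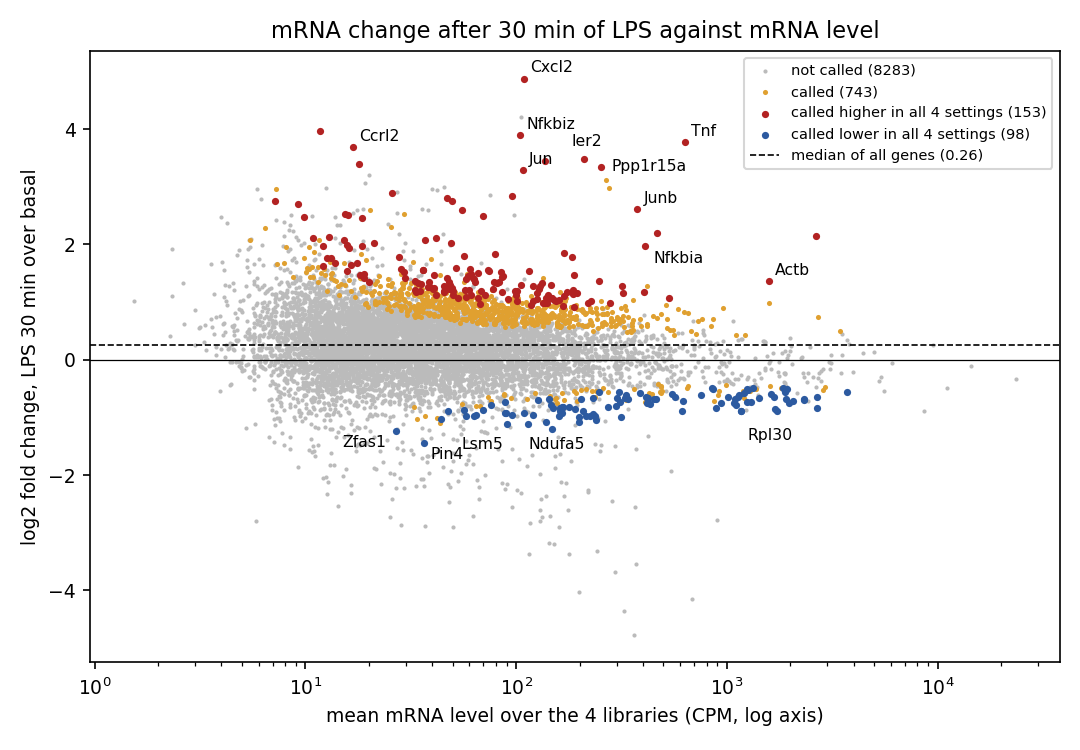
Each point is a gene, with its mean mRNA level over the 2 LPS and 2 basal libraries on the x axis (CPM, log scale) and its log2 fold change, LPS over basal, on the y axis. The 153 genes called higher in all 4 settings reach a log2 fold change of 4.88 (Cxcl2), while the 98 called lower (blue) reach -1.44 (Pin4). Their median mRNA levels were 63.0 CPM for the higher and 322 CPM for the lower genes, against 35.3 CPM for all genes.

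Secreted inflammatory mediators were among the highest changes. Cxcl2, a chemokine that draws neutrophils, headed the ranking, with 171 and 249.5 CPM in LPS-treated cells, against 2.71 and 12.4 CPM in basal cells. Both LPS libraries lay far above both basal ones, for a log2 fold change of 4.88 ± 0.52 (SE; limma, adjusted p = 0.015), and 3.95 without basal replicate 1, where the level was lowest. Tnf, the cytokine that opens the inflammatory cascade, stood at 949.8 and 1419 CPM in LPS-treated cells, against 80.0 and 87.7 CPM in basal cells. The groups were wide apart and the basal pair close, and the change of 3.78 ± 0.21 had the lowest adjusted p of the named genes (limma, adjusted p = 0.00145), with 3.48 under median-of-ratios scaling without basal replicate 1. In the plain CPM means this is 1185 ± 332 CPM with LPS and 83.8 ± 5.44 CPM in basal cells (SD, n = 2 each). Cxcl3, a close relative of Cxcl2, had 14.8 and 31.2 with LPS, against 0 and 1.08 CPM in basal cells, where the basal libraries hold 2 reads or fewer and no fold is given. The macrophage inflammatory proteins Ccl4 and Ccl3 are neighbouring genes and both rose. Ccl4 had 281 and 247 with LPS, against 63.0 and 83.4 CPM in basal cells, a log2 fold change of 1.85 ± 0.19 (limma, adjusted p = 0.0129). Ccl3 had 307 and 246 with LPS, against 94.9 and 103 CPM in basal cells, a change of 1.46 ± 0.15 (limma, adjusted p = 0.013). The monocyte chemoattractant Ccl2 (67.4 and 65.5 with LPS, against 41.4 and 44.4 CPM in basal cells) missed the threshold, at 0.62 ± 0.16 (limma, adjusted p = 0.0509), and Ccl9 had a log2 fold change of -0.10. So 4 of the 6 tested chemokine genes of the list were called higher, all 4 in all 4 settings, and none lower.

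Among the 7 tested genes of the TNF family and interleukins 3 were called higher and none lower. Beside Tnf these were the T cell costimulator ligand Tnfsf9 (4-1BB ligand), with 100 and 123 with LPS, against 35.3 and 40.1 CPM in basal cells and a log2 fold change of 1.53 ± 0.17, and the IL-6 family cytokine Osm, with 13 and 25.9 with LPS, against 4.75 and 2.71 CPM in basal cells and 2.07 ± 0.46. Tnfsf9 was called in all 4 settings and Osm was not. Il1rn, which encodes the IL-1 receptor antagonist (0.22), and Ltb, the neighbour of Tnf (-0.04), were not called. Ptgs2 (cyclooxygenase-2, which makes prostaglandins) rose to 20.1 and 23.3 with LPS, against 4.07 and 4.33 CPM in basal cells, a change of 2.12 ± 0.31 (limma, adjusted p = 0.0205). Nos2, the inducible nitric oxide synthase, stood at 5.91 and 3.51 with LPS, against 5.42 and 4.87 CPM in basal cells, near the floor in every library. The interferon response list had no member called higher and 1 lower of 11 tested, with a median log2 fold change of 0.02. The lower one was the antiviral membrane protein Ifitm3 (288 and 237 with LPS, against 379 and 461 CPM in basal cells), called in all 4 settings. Cxcl10, Il1a, Il1b, Egr1, Fosb and Myc were not analysed here.

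Promoters of the genes with the highest changes are shown to place the binding motifs of the LPS-activated factors next to the values. The sequences are those of RefSeq (mouse assembly GRCm38.p6), and 7171 of the 9277 tested genes had a promoter of 300 bases there, 250 before the start and 50 after it. For 1458 genes with several promoters the first was used. A match to the NF-κB (κB) consensus on either strand was present in 12 of 119 genes called higher in all 4 settings (10.1%), in 1 of 63 called lower (1.59%) and in 5.03% of all promoters, and it was present in 5 of the 16 promoters among the 20 highest genes. Below, 150 bases before to 20 bases after the start of those 5 genes, of Nfkbia and of Tnf are given in the direction of transcription, with matches to κB, to TATAAA (the TATA box) and to the AP-1 motif TGANTCA in capitals. These stretches are Cxcl2 (chr5:90903749-90903918 on the plus strand), Cxcl3 (chr5:90785951-90786120 on the plus strand), Ccrl2 (chr9:111057499-111057668 on the minus strand), Ier3 (chr17:35821563-35821732 on the plus strand), Tnfaip3 (chr10:19015391-19015560 on the minus strand), Nfkbia (chr12:55492628-55492797 on the minus strand) and Tnf (chr17:35201988-35202157 on the minus strand).
Cxcl2: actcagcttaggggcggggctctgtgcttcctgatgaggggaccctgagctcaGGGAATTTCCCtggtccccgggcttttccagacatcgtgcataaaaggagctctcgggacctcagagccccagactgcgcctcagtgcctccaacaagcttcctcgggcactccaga
Cxcl3: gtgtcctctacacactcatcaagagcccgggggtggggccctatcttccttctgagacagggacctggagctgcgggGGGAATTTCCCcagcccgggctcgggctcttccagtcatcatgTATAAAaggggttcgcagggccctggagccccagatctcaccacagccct
Ccrl2: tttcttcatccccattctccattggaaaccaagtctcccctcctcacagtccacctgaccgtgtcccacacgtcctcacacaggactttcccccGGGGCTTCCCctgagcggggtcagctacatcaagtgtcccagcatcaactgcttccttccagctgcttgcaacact
Ier3: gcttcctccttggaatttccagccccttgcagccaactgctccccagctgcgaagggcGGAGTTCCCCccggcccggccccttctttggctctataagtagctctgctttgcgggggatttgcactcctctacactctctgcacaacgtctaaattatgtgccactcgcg
Tnfaip3: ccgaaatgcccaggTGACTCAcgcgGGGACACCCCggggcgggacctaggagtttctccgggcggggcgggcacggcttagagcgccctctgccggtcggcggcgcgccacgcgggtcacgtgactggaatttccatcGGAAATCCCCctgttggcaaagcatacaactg
Nfkbia: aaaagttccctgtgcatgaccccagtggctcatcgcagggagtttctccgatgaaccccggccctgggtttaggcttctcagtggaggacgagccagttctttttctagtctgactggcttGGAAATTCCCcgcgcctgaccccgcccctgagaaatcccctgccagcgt
Tnf: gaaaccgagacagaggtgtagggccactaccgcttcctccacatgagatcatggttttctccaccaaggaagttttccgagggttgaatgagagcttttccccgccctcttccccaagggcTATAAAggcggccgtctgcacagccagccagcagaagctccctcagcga

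Counted from the first transcribed base as 0, the matches of Cxcl2 began at -97 and -96 and those of Cxcl3 at -73 and -72. In each of these the 2 matches overlap, 1 on each strand, and the 11 capital bases of both genes are the same. Tnfaip3 had matches at -125 and -12 and an AP-1 match at -136, and Nfkbia had 1 at -29, Ccrl2 at -56 and Ier3 at -92. The window of Tnf holds none of the κB form searched and a TATAAA at -29. TATAAA was present in 11.8% of the promoters of the genes called higher in all 4 settings, 9.52% of those called lower and 6.26% of all. For the same groups the shares were 4.2%, 9.52% and 4.43% for TGANTCA and 5.04%, 6.35% and 3.5% for the CREB and ATF motif TGACGTCA. A match is a description of the letters and not evidence of binding, and Ccrl2 and Tnfaip3 have 3 and 2 promoters in the table.

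Of the 17 tested NF-κB inhibitor and feedback genes 4 were called higher. Nfkbiz (IκBζ, a nuclear cofactor for secondary response genes) had 120 and 276 CPM in LPS-treated cells, against 9.49 and 13.5 CPM in basal cells. It changed by 3.89 ± 0.36 on the log2 scale (limma, adjusted p = 0.0124), the highest value among the inhibitors. Tnfaip3 (A20, a ubiquitin-editing enzyme that shuts off signalling to IKK) had 57.3 and 117 with LPS, against 9.49 and 13.5 CPM in basal cells and a change of 2.75 ± 0.33 (limma, adjusted p = 0.0184). Nfkbid (IκBNS) had 95.7 and 143 with LPS, against 23.0 and 17.3 CPM in basal cells and 2.49 ± 0.23. Nfkbia, the IκBα that recaptures NF-κB, rose to 514 and 793 with LPS, against 174 and 152 CPM in basal cells, a change of 1.96 ± 0.20 (limma, adjusted p = 0.0129). Each of these was called in all 4 settings, and no member was called lower. The other IκB genes Nfkbie (0.82) and Nfkbib (0.26), and Tnip1 (0.50), an A20 partner, did not pass. Of the 5 NF-κB subunits only Rela (p65) was called, with 88.7 and 94.5 with LPS, against 31.9 and 35.2 CPM in basal cells and a change of 1.42 ± 0.19, in all 4 settings. Relb (0.60), Rel (0.44), Nfkb1 (0.40) and Nfkb2 (0.38) were not called, and Rel lay under 10 CPM in every library. Rel, Relb, Nfkb1 and Nfkb2 were positive in every one of the 4 settings, though Rel was at 0.01 with both alterations.

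**Figure D2:**
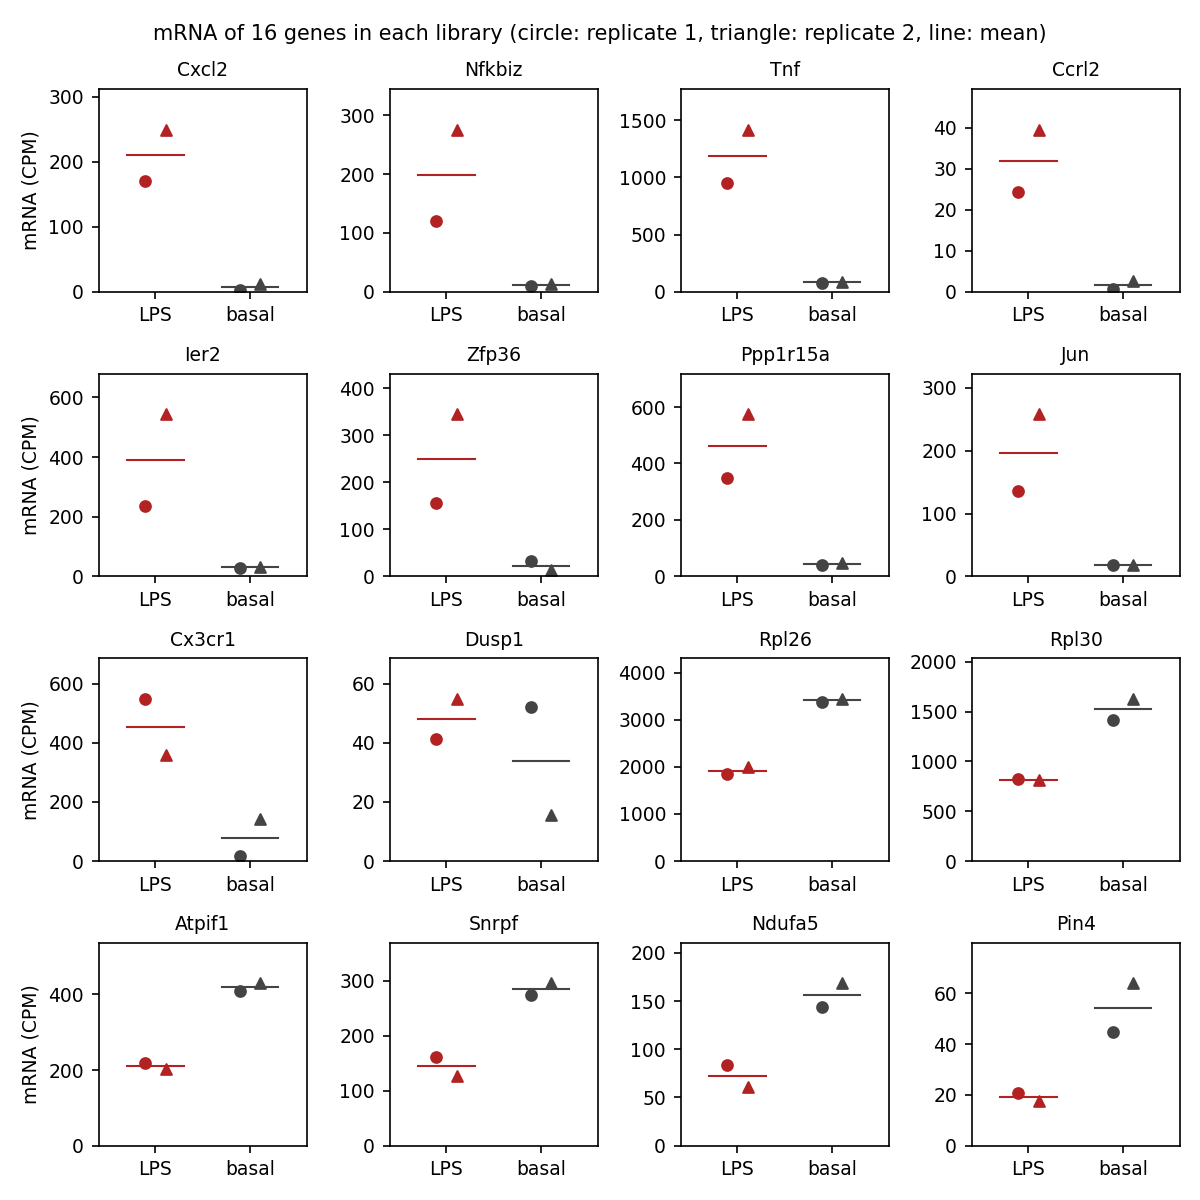
mRNA level in CPM of 16 genes in each library, with LPS-treated cells on the left and basal cells on the right of each panel (circle, replicate 1; triangle, replicate 2; line, mean). In the first 8 panels, Cxcl2 to Jun, both LPS libraries lie above both basal ones and LPS replicate 2 above replicate 1. Cx3cr1 and Dusp1 differ between their basal libraries, and in the last 6 panels both LPS libraries lie below both basal ones.

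AP-1 genes led the transcription factors. Jun had 136 and 258 with LPS, against 18.3 and 18.4 CPM in basal cells, a change of 3.28 ± 0.27 (limma, adjusted p = 0.00791). Junb had 410.2 and 896 with LPS, against 91.5 and 106 CPM in basal cells and 2.61 ± 0.32 (limma, adjusted p = 0.0184), and Fos had 18.9 and 36.9 with LPS, against 3.39 and 4.33 CPM in basal cells and 2.51 ± 0.35 (limma, adjusted p = 0.0205). All of these were called in all 4 settings. The list of AP-1 and ATF factors had 6 of 10 members higher and none lower, among them Atf3 (1.10) and Jund (1.08), which were not called with median-of-ratios scaling. Atf4, which is regulated mainly at translation, had a log2 fold change of -0.12. Of 13 other immediate early transcription factors 3 were called higher. Srf, the serum response factor that drives many immediate early genes, had 109 and 143 with LPS, against 34.6 and 52.5 CPM in basal cells and 1.53 ± 0.24, and was called in all 4 settings. Klf2 (1.40) and Ets2 (0.94) were called with total-read scaling. Egr2 (12.4 and 37.8 with LPS, against 6.78 and 1.62 CPM in basal cells) and the nuclear receptor Nr4a1 (4.73 and 36.0 with LPS, against 7.46 and 2.17 CPM in basal cells) differed several-fold between replicates and did not pass (limma, adjusted p = 0.0561 and 0.264). Without basal replicate 1 both were called, at 3.12 and 2.20 on the log2 scale.

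The CArG box, the motif bound by SRF, was found in 4 of the 119 promoters of genes called higher in all 4 settings (3.36%), in 0 of 63 called lower and in 1.2% of all. The stretches of Zfp36 (chr7:28379209-28379378 on the minus strand) and of Srf itself (chr17:46556143-46556312 on the minus strand) hold it and are given with its matches, TATAAA and the ETS motif CCGGAAG in capitals.
Zfp36: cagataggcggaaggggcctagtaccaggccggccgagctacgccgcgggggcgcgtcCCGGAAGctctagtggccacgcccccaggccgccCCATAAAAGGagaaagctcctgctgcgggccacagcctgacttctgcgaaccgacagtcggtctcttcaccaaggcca
Srf: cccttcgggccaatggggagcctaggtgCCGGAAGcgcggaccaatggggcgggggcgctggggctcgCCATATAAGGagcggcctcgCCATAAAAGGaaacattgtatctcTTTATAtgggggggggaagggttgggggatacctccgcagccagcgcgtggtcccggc

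Zfp36 has 1 CArG match at -58 and Srf has 2, at -82 and -62, on mouse chromosomes 7 and 17. Zfp36 encodes tristetraprolin, which binds AU-rich elements and speeds the decay of Tnf and other cytokine mRNAs. It had 157 and 345 CPM in LPS-treated cells, against 31.9 and 13 CPM in basal cells. The groups were separate, although the basal libraries differed from each other, and the change was 3.45 ± 0.45 (limma, adjusted p = 0.0188), and 4.06 without basal replicate 1. Its paralog Zfp36l2 had 95.7 and 130.5 with LPS, against 43.4 and 42.8 CPM in basal cells and 1.36 ± 0.18, called in all 4 settings, while Zfp36l1 (15.4 and 31.2 with LPS, against 7.46 and 10.8 CPM in basal cells) did not pass. Of 25 genes on the mRNA decay list 5 were called higher and none lower, beside 9.03% of all genes higher. The calls of 3 of them, Zfp36 and Zfp36l2 included, held in all 4 settings. Also called higher were Cnot1, the scaffold of the CCR4-NOT deadenylase (1.15), and the RNA-binding proteins Elavl1 (HuR, 1.02) and Khsrp (KSRP, 0.95). The RNase gene Zc3h12a (regnase-1) had 31.3 and 51.0 with LPS, against 50.2 and 11.9 CPM in basal cells, with the first basal library as high as an LPS library, and was not called, at 0.67 ± 0.57. Without that library it was, at 1.67 (limma, adjusted p = 0.00506).

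Of 22 other immediate early genes 11 were called higher and none lower, 8 of them in all 4 settings. Ier2, a nuclear protein of the early growth response, had 235 and 543 with LPS, against 29.1 and 33.0 CPM in basal cells and a log2 fold change of 3.48 ± 0.34 (limma, adjusted p = 0.0129). Ppp1r15a (GADD34), which directs protein phosphatase 1 to eIF2α and so restores translation, had 348 and 575 with LPS, against 39.3 and 47.6 CPM in basal cells and 3.34 ± 0.23 (limma, adjusted p = 0.0039). The basal pairs of both genes lay close together and far below the LPS pairs. The survival gene Ier3 (140.1 and 198 with LPS, against 23.0 and 21.7 CPM in basal cells) changed by 2.84 ± 0.22. The kinase gene Pim1 (32.5 and 60.2 with LPS, against 6.78 and 3.79 CPM in basal cells) changed by 2.89 ± 0.38 and the antiproliferative gene Btg2 (55.6 and 138 with LPS, against 16.3 and 11.4 CPM in basal cells) by 2.60 ± 0.40. Arc (2.46), the small GTPase gene Rhob (2.03) and the polo-like kinase gene Plk2 (1.79) complete the 8. The count rose to 15 without basal replicate 1, where Ier5 (1.27 with it, 1.26 without) and the antiapoptotic Mcl1 (0.56 and 1.02) passed. Gadd45b, a stress gene, had a log2 fold change of -0.31 and Rgs1 of -0.03.

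MAP kinase feedback was led by Dusp2 (PAC-1, a nuclear phosphatase), with 42.6 and 78.2 with LPS, against 10.2 and 16.2 CPM in basal cells and a change of 2.08 ± 0.33 (limma, adjusted p = 0.0209), called in all 4 settings. Dusp4 (1.16) and Dusp3 (0.85) were called with all libraries but not with median-of-ratios scaling, which makes 3 of 10 members higher and none lower. Dusp1 (MKP-1), the main phosphatase for p38 and JNK in macrophages, had 41.4 and 54.9 CPM in LPS-treated cells, against 52.2 and 15.7 CPM in basal cells. The first basal library lay between the LPS libraries, and the gene was not called, at 0.71 ± 0.47 (limma, adjusted p = 0.336). Without that library the change was 1.54 (limma, adjusted p = 0.00159), and without basal replicate 2 it was -0.13, so that 1 library sets its direction. Its footprints, measured in other libraries, were 16.9 and 18.2 CPM with LPS and 7.63 and 5.26 CPM in basal cells.

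At the cell surface 9 of 37 macrophage receptors and adaptors were called higher and 1 lower, and 5 higher and 4 lower with median-of-ratios scaling and without basal replicate 1. Ccrl2, an atypical receptor that binds chemerin, had 24.2 and 39.5 with LPS, against 0.678 and 2.71 CPM in basal cells, a change of 3.68 ± 0.42 (limma, adjusted p = 0.0174) that rests on 5 or fewer reads in each basal library. Gpr84, a receptor for medium-chain fatty acids (103 and 147 with LPS, against 27.1 and 42.2 CPM in basal cells), changed by 1.83 ± 0.32, and the proteoglycan gene Sdc4 (76.2 and 101 with LPS, against 21.0 and 28.7 CPM in basal cells) by 1.80 ± 0.22. Ccrl2, Gpr84 and Sdc4 were the 3 called in all 4 settings. Cx3cr1, the fractalkine receptor, had 548 and 357 CPM in LPS-treated cells, against 17.6 and 141 CPM in basal cells. Both LPS libraries were higher, but the basal libraries differed 8-fold from each other and the call was marginal, at 3.11 ± 0.80 (limma, adjusted p = 0.0497), with 1.65 without basal replicate 1 and no call with median-of-ratios scaling. The calcium channel gene Orai1 (1.74), Csf1r (0.80), Tlr2 (0.79) and Cd14 (0.59) were also called higher, though not in all 4 settings, and the adaptor Tyrobp (DAP12, -0.45) lower. Of 25 members of the TLR4 pathway itself 5 were called higher, none in all 4 settings: Ticam1 (TRIF, 1.30), Traf3 (1.07), Rbck1 (0.81), Irak1 (0.61) and Cd14. With median-of-ratios scaling of all libraries 0 of the 25 were called. The first counts of this list and of the 37 receptors and adaptors stand beside 9.03% of all genes called higher and 1.68% lower. The receptor Tlr4 (0.05), Myd88 (0.31) and Ly96 (MD-2, -0.55) were not called.

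The 20 highest genes also include 6 that stand on none of the gene lists. Ppp1r9a (neurabin), which binds protein phosphatase 1 and actin, had 574 and 371 with LPS, against 26.4 and 126 CPM in basal cells and a change of 2.97 ± 0.62, not called with median-of-ratios scaling. Xylb (xylulokinase) had 68.6 and 95.8 with LPS, against 6.10 and 18.4 CPM in basal cells and 2.81 ± 0.55. In both, as in Cx3cr1, the first basal library was lower than the second by 3 times or more. The poly(A) polymerase gene Papolb (17.7 and 9.23 with LPS, against 0 and 2.17 CPM in basal cells), Grrp1 (13.6 and 12.7 with LPS, against 0.678 and 1.62 CPM in basal cells), the predicted gene Gm10382 (15.4 and 51.8 with LPS, against 4.07 and 0.541 CPM in basal cells) and 4933405L10Rik (16.5 and 16.3 with LPS, against 0.678 and 3.25 CPM in basal cells) each had under 4.1 CPM in every basal library. Of the 20 highest genes 17 were called in all 4 settings, the exceptions being Cx3cr1, Ppp1r9a and Papolb.

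Of the housekeeping and cytoskeletal genes, Actb (β-actin), a target of SRF, had 1833 and 2741 with LPS, against 868 and 877 CPM in basal cells and 1.36 ± 0.19 (limma, adjusted p = 0.0205) and was called in all 4 settings. Gapdh had 5209 and 5276 with LPS, against 4620 and 4894 CPM in basal cells and 0.14 ± 0.13, not called, and its sign turned to -0.12 with median-of-ratios scaling. Of 40 SRF and actin cytoskeleton genes 9 were called higher, with Actb alone in all 4 settings, and 2 lower in all 4 settings. The higher ones include talin, Tln1 (1.03), Actg1 (0.99) and the myosin heavy chain Myh9 (0.98), and the lower ones are thymosin β4, Tmsb4x (-0.85), and the myosin light chain Myl6 (-0.65). Of 21 integrated stress response genes 5 were called higher, with Ppp1r15a alone in all 4 settings, and Ddit3 (CHOP) had -0.31. In cholesterol synthesis 4 of 22 were higher, with lanosterol synthase Lss (62.1 and 79.5 with LPS, against 29.8 and 30.3 CPM in basal cells) and the sterol sensor Scap (131 and 151 with LPS, against 66.4 and 56.3 CPM in basal cells) in all 4 settings, at 1.20 ± 0.21 and 1.19 ± 0.18. In the secretory pathway the translocon channel Sec61a1 (1.28) and the ER-associated degradation factor Herpud1 (1.18) were called in all 4 settings, 2 of the 4 higher among 33. With median-of-ratios scaling and without basal replicate 1 the actin list had 4 higher and 3 lower and the secretory list 2 higher and 4 lower. The first counts stand beside 9.03% of all genes called higher.

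Replication-dependent histones, whose mRNAs normally lack poly(A) tails, had 8 of 22 tested members higher and none lower, 4 of them in all 4 settings. All 8 are H2A genes, such as Hist1h2ah (30.7 and 38.2 with LPS, against 6.78 and 8.66 CPM in basal cells), with a log2 fold change of 2.02 ± 0.28, and Hist1h2ap (51.4 and 57.5 with LPS, against 18.3 and 17.3 CPM in basal cells), with 1.56 ± 0.21. Footprints of 4 of these H2A genes were called lower, at -0.60 for Hist1h2ah (limma, adjusted p = 0.0116), -0.63 for Hist1h2ad, -0.63 for Hist1h2ag and -0.45 for Hist1h2ap on the log2 scale, the opposite direction to their mRNA, and the difference between the assays was not tested. Near-identical copies share reads, so single H2A genes are uncertain. Linker histone genes were not called, among them Hist1h1e (3.55 and 6.59 with LPS, against 1463 and 2.17 CPM in basal cells), and the sum over all 59 listed histone genes was 579.8 and 628 CPM with LPS, against 3197 and 273 CPM in basal cells. Basal replicate 1 therefore decides the direction of that sum.

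The ribosomal protein mRNAs held most of the calls among the lower genes that were on a list. Of 48 large-subunit genes 23 were called lower and none higher, 18 in all 4 settings, with a median log2 fold change of -0.47, beside 1.68% of all genes lower and a median of 0.26. Of 34 small-subunit genes 14 were lower and none higher, 12 in all 4 settings, with a median of -0.44. The large-subunit mRNAs summed to 68540 and 69740 CPM in LPS-treated cells, against 88683 and 94897 CPM in basal cells. The small-subunit mRNAs summed to 52426 and 53581 CPM, against 64630 and 70355 CPM. In both, the LPS pair was tight and under both basal libraries. Rpl26 had 1841 and 1998 CPM in LPS-treated cells, against 3383 and 3444 CPM in basal cells, a change of -0.83 ± 0.10 (limma, adjusted p = 0.0184). Rpl30 had 826 and 808 with LPS, against 1415 and 1628 CPM in basal cells and -0.89 ± 0.14, and Rps15a had 1599.9 and 1347 with LPS, against 2326 and 2636 CPM in basal cells and -0.75 ± 0.13. Rps27a, which encodes ubiquitin fused to a ribosomal protein, had 1629 and 1456 with LPS, against 2252 and 2856 CPM in basal cells and -0.72 ± 0.15. Of 16 other mRNAs with a 5′ terminal oligopyrimidine tract, the class to which ribosomal proteins belong, Eef2 (elongation factor 2; 0.75) and Eif4b (0.47) were called higher with total-read scaling and Eef1b2 (-0.51) lower in all 4 settings. With median-of-ratios scaling 0 of the 16 were higher and 2 lower, and without basal replicate 1 as well 0 were higher and 4 lower, with a median of -0.31. Ribosomal protein genes have many processed pseudogenes, and the lower transcript Rpl9-ps1 (-0.98), which has a pseudogene name, may share reads with functional genes. The predicted genes Gm8444 (-1.08) and Gm5449 (-1.02) were also lower, and their names do not tell whether they are such copies.

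Nuclear genes of the respiratory chain were the next lowest. Of 37 complex I subunits 6 were called lower and none higher, 3 in all 4 settings, with a median of -0.40. Ndufa5 had 83.3 and 60.6 with LPS, against 144 and 168 CPM in basal cells, a change of -1.12 ± 0.21 (limma, adjusted p = 0.0253), and Ndufa4 had 239 and 226 with LPS, against 359 and 422 CPM in basal cells and -0.74 ± 0.13. Of 42 subunits and factors of complexes II to V 11 were lower and 2 higher, with 9 lower in all 4 settings. The ATP synthase inhibitor Atpif1 had 218 and 204 with LPS, against 409 and 429 CPM in basal cells and -0.99 ± 0.12 (limma, adjusted p = 0.0184). The ATP synthase subunit Atp5j (-1.04 ± 0.23), the complex III subunit Uqcrb (-0.97 ± 0.20) and the cytochrome oxidase subunit Cox7b (-0.89 ± 0.17) moved the same way. Within one complex the subunits differed: of the ATP synthase, the catalytic-core subunit Atp5a1 was called higher (0.44) while Atp5e (-0.67), Atp5k (-0.82) and Atp5j2 (-0.61) were called lower, and of complex II, Sdha was called higher (0.55). Neither higher call held in all 4 settings. The 13 mitochondrially encoded genes had a median of -0.29, with no call by limma or limma-voom and 2 lower at an unadjusted p under 0.05. They summed to 62847 and 42104 CPM with LPS, against 60295 and 76920 CPM in basal cells, so that LPS replicate 1 lay at the level of basal replicate 1, and 3 were called lower without that basal library. With median-of-ratios scaling and without basal replicate 1 their median, -0.80, was the lowest of the 38 ranked lists. Of 77 mitochondrial ribosomal proteins 5 were lower and none higher, 1 (Mrps18c, -0.87) in all 4 settings. Of 41 proteasome subunits 1 was lower (Psmb1, -0.51), and not in all 4 settings. With total-read scaling and all libraries 1.68% of all genes were called lower, and the proteasome count lies near that share.

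The lowest of the called genes was Pin4 (parvulin 14, a prolyl isomerase), with 20.7 and 17.6 CPM in LPS-treated cells, against 44.7 and 63.9 CPM in basal cells. Its change was -1.44 ± 0.30 (limma, adjusted p = 0.0296), which is 2.71 times lower with LPS on the scale of the fit. The noncoding snoRNA host Zfas1 (14.2 and 17.1 with LPS, against 33.2 and 43.3 CPM in basal cells) changed by -1.23 ± 0.27 and the predicted gene Gm5277 (91.0 and 83.9 with LPS, against 252 and 163 CPM in basal cells) by -1.21 ± 0.22. Denr, a factor that recycles ribosomes and reinitiates translation, had 98.7 and 80.0 with LPS, against 186 and 191 CPM in basal cells and -1.07 ± 0.23. The elongation factor Supt4a (37.8 and 38.7 with LPS, against 66.4 and 87.7 CPM in basal cells) fell by 0.98 and the mitochondrial chaperonin partner Hspe1 (516 and 347 with LPS, against 746 and 829 CPM in basal cells) by 0.89 on the log2 scale. The spliceosomal Sm and LSm genes, Lsm5 (-1.11), Snrpd1 (-0.99), Snrpf (-0.98) and Snrpe (-0.97), stand among the 20 lowest. Of those 20, 16 were called in all 4 settings, the exceptions being Eral1 (-1.09), Cbx1 (-1.03), S100a1 (24.8 and 30.8 with LPS, against 58.3 and 54.7 CPM in basal cells) and Zbtb8os (-0.97), which missed the threshold without basal replicate 1.

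The ETS motif CCGGAAG was the commonest of the motifs searched and was spread the other way from κB. It was present in 23 of the 63 promoters of genes called lower in all 4 settings (36.5%), in 11 of 119 of those called higher (9.24%) and in 21.5% of all. Among the 20 lowest genes it was present in 3 of 14 promoters (21.4%), the level of all promoters. Of the lower genes that hold it, 3 are shown: Rpl26 (chr11:68901416-68901585 on the plus strand), Hspe1 (chr1:55087998-55088167 on the plus strand) and Supt4a (chr11:87737401-87737570 on the plus strand), with CCGGAAG and TGACGTCA matches in capitals.
Rpl26: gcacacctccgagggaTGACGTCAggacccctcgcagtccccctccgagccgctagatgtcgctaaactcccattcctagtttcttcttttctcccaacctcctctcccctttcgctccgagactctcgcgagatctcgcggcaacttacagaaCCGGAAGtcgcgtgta
Hspe1: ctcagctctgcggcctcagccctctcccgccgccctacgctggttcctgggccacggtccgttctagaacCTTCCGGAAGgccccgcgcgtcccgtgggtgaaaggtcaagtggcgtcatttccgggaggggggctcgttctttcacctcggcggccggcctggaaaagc
Supt4a: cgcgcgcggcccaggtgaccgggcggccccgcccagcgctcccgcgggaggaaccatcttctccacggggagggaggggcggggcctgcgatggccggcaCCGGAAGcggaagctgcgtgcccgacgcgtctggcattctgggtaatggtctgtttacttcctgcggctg

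Rpl26 holds CCGGAAG at 4, just inside the transcript, and a TGACGTCA at -134, Supt4a holds CCGGAAG at -50, and Hspe1 has overlapping matches on opposite strands at -80 and -77. None of these stretches holds a κB, CArG or TATAAA match.

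**Figure D3:**
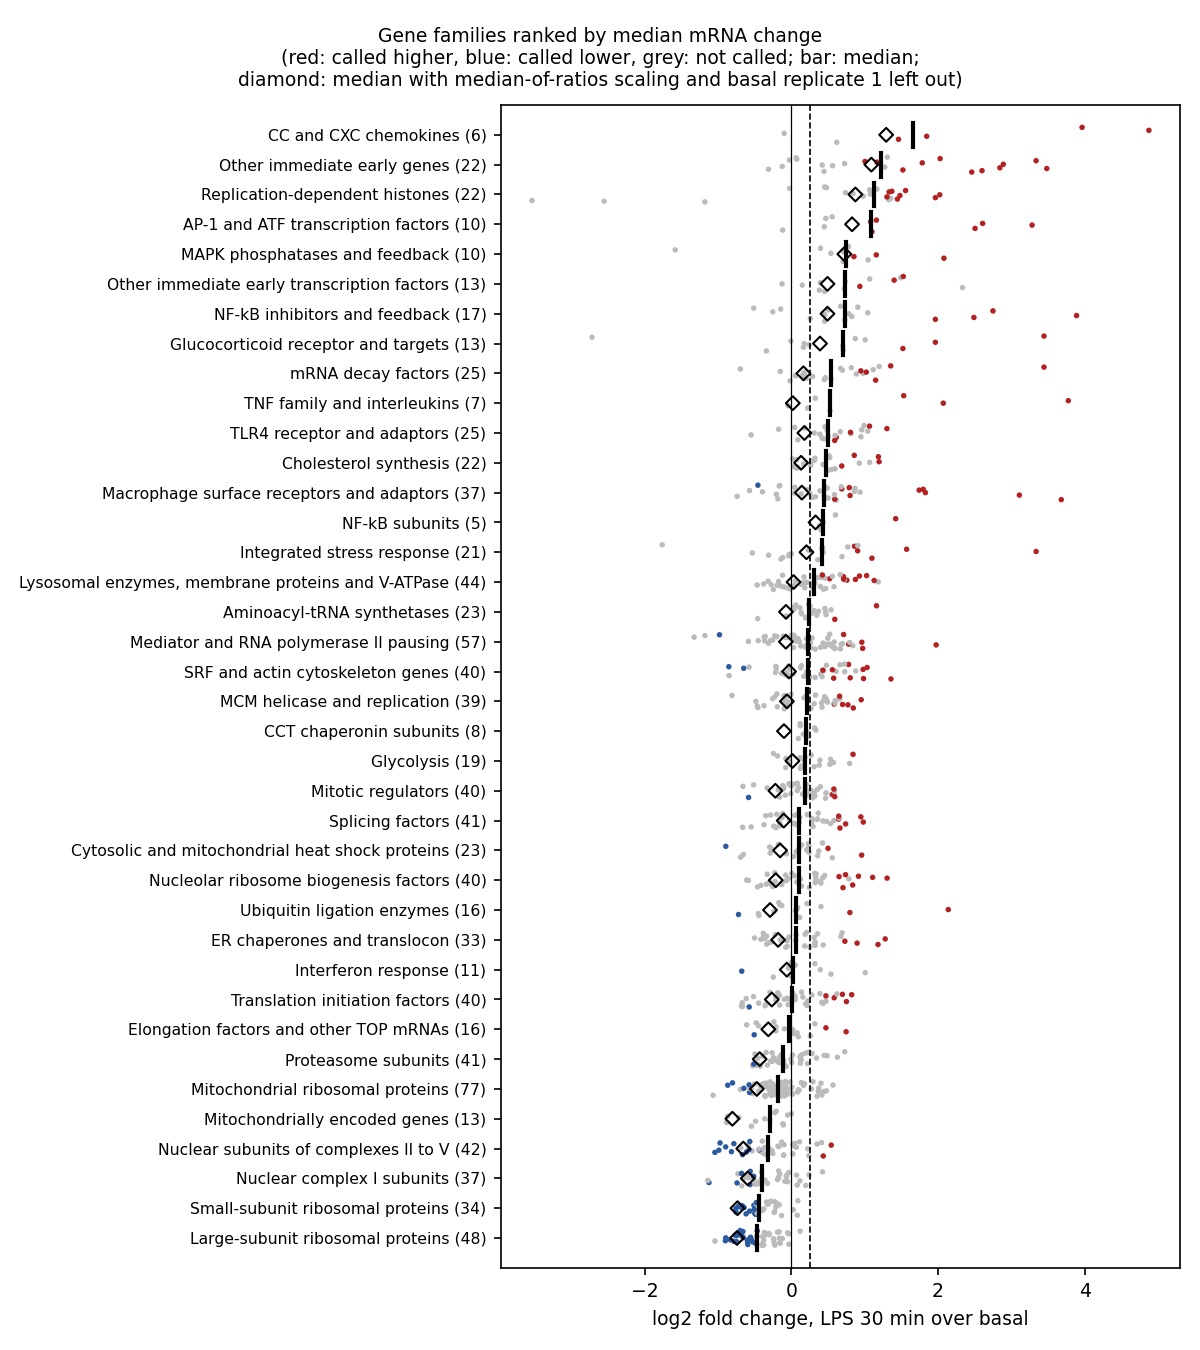
Gene lists with at least 5 tested members, ranked by the median log2 fold change of LPS over basal (x axis; number tested in brackets; points are genes, bars medians, diamonds medians with median-of-ratios scaling and without basal replicate 1, and the dashed line the median of all genes, 0.26). Chemokines (1.65) and immediate early genes (1.22) stand at the top and ribosomal proteins (-0.44 and -0.47) at the bottom, and the diamonds of most lists lie left of the bars.

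For the lists of the nuclear machinery the background is 9.03% of all genes higher and 1.68% lower, and the Mediator, aminoacyl-tRNA synthetase and mitotic lists lay near it. Of 57 Mediator and RNA polymerase II pausing genes 5 were called higher and 1 lower. Med13l, a subunit of the Mediator kinase module, had 14.8 and 25.5 with LPS, against 4.07 and 4.33 CPM in basal cells and a log2 fold change of 1.98 ± 0.36, called in all 4 settings. The call of the pausing factor Supt5 (0.71) was lost without basal replicate 1 (0.51; limma, adjusted p = 0.113), while its partner Supt4a was called lower in all 4 settings. Of 40 nucleolar ribosome biogenesis factors 7 were higher and none lower, with Rrn3 (TIF-IA, which recruits RNA polymerase I) at 52.6 and 48.3 with LPS, against 17.6 and 22.2 CPM in basal cells and 1.31 ± 0.21 in all 4 settings. With median-of-ratios scaling and without basal replicate 1 this list had 2 higher and 3 lower, with a median of -0.21. Of 41 splicing factors 6 were higher and none lower, Hnrnpul1 (271 and 315 with LPS, against 138 and 158 CPM in basal cells; 0.98 ± 0.14) in all 4 settings, but 2 were higher and 2 lower with median-of-ratios scaling, and 1 higher and 3 lower without basal replicate 1 as well. Of 23 aminoacyl-tRNA synthetases 2 were higher, with Vars (408 and 485 with LPS, against 203 and 193 CPM in basal cells; 1.16 ± 0.16) in all 4 settings. Replication factors (6 of 39 higher, such as Mcm2, 0.70, and Cdt1, 0.85) and mitotic regulators (3 higher, 1 lower of 40, the lower one Birc5, survivin, -0.58) had no call in all 4 settings. Among 23 heat shock proteins Dnajb1 (0.96) and Hspa8 (0.50) were called higher, not in all 4 settings, and Hspe1 lower. With both alterations the replication list had 2 higher and 1 lower, and the heat shock list 0 higher and 2 lower.

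By median change the 38 ranked lists ran from the chemokines (1.65), other immediate early genes (1.22), histones (1.12) and AP-1 and ATF factors (1.09) down to complexes II to V (-0.31), complex I (-0.40) and the small-subunit (-0.44) and large-subunit ribosomal proteins (-0.47). Chemokines, immediate early genes, histones and AP-1 kept the first 4 places with median-of-ratios scaling and without basal replicate 1, at 1.29, 1.09, 0.87 and 0.83. Of the 38 medians 30 were positive, and 13 of these turned negative with both alterations. The TNF family and interleukins list dropped from place 10 to 16 of 38 there, with a median of 0.02. In the middle, CCT chaperonin subunits had no call by limma or limma-voom among 8, with 1 higher at an unadjusted p under 0.05 (median 0.20), glycolysis had 1 higher among 19 (Slc2a1, the glucose transporter GLUT1, 0.84; median 0.19), and translation initiation factors had 5 higher and 1 lower among 40 (median 0.00; the scaffold Eif4g1, 0.82, among the higher). With both alterations the initiation factors had 0 higher and 5 lower, with a median of -0.26. Lysosomal genes and the V-ATPase had 9 higher and none lower among 44 (median 0.30), led by the acid glucosidase Gaa (1.13), which alone was called in all 4 settings, and 1 higher and 1 lower with both alterations. Of the 13 glucocorticoid receptor and target genes 3 were higher, Zfp36, Nfkbia and Errfi1 (1.52), and the receptor Nr3c1 itself had -0.01. With total-read scaling and all libraries these list counts stand beside 9.03% of all genes called higher and 1.68% lower. The counts of initiation factors and glycolysis lie near those shares, and no higher call of either list held in all 4 settings.

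Footprints of the same treatments, from separate libraries, were tested in 8847 genes, of which 292 (3.3%) were higher and 382 (4.32%) lower with LPS. Of the 18 of the 20 highest mRNAs with a footprint test, 14 were called higher in footprints too and none lower. Tnf footprints were 1267 and 1263 with LPS, against 58.8 and 48.0 CPM in basal cells, a log2 fold change of 4.55, and Cxcl2 footprints 225 and 226 with LPS, against 7.63 and 5.26 CPM in basal cells, 4.95. Ier3 footprints rose to 106 and 103 with LPS, against 9.16 and 8.55 CPM in basal cells, 3.42 on the log2 scale, where the mRNA changed by 2.84. The difference between the assays was not tested. Actb footprints were called lower (-0.33), the opposite direction to its mRNA. Over the 153 genes called higher in all 4 settings, 147 had a footprint test, with 26 higher and 12 lower and a median of -0.10. Over the 98 called lower, 97 had one, with 20 higher and 7 lower and a median of 0.18. Snrpf, for example, was lower in mRNA and had footprints of 297 and 297 with LPS, against 229.7 and 173 CPM in basal cells, called higher (0.57). Of the 20 lowest mRNAs 19 were tested, with 3 higher in footprints and none lower. No footprint median over all genes is given here, so the medians of -0.10 and 0.18 have no background beside them. The footprint libraries held 829415 and 821946 reads with LPS, against 1310291 and 1520613 reads in basal cells.

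The number of calls depended on both LPS libraries, while the median change of all genes hardly moved. It was 0.27 without LPS replicate 1 and 0.25 without LPS replicate 2, against 0.26 with all libraries. With 1 LPS library left, the spread is set by the basal pair and the LPS+DEX pair. The fits below rest on that borrowed spread, so they cannot decide whether single changes need both LPS libraries. LPS replicate 2 was above LPS replicate 1 in 133 of the 153 genes called higher in all 4 settings (86.9%), against 54.5% of all genes tested. Fitted without LPS replicate 1, where the lone LPS library is assumed to vary like the other groups, limma called 13 genes higher (0.14%) and 0 lower (0%), with 1835 higher and 392 lower at an unadjusted p under 0.05. Without LPS replicate 2 it called 6 higher (0.0647%) and 0 lower, with 1312 and 309 at an unadjusted p under 0.05. Tnf, Nfkbiz, Ppp1r15a, Ier2, Jun and Junb were called in both. Without LPS replicate 1 alone, Tnfaip3, Btg2, Ier3, Nfkbid, Nfkbia and Actb were among those that joined them. No ribosomal protein or respiratory chain gene was called in either.

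**Figure D4:**
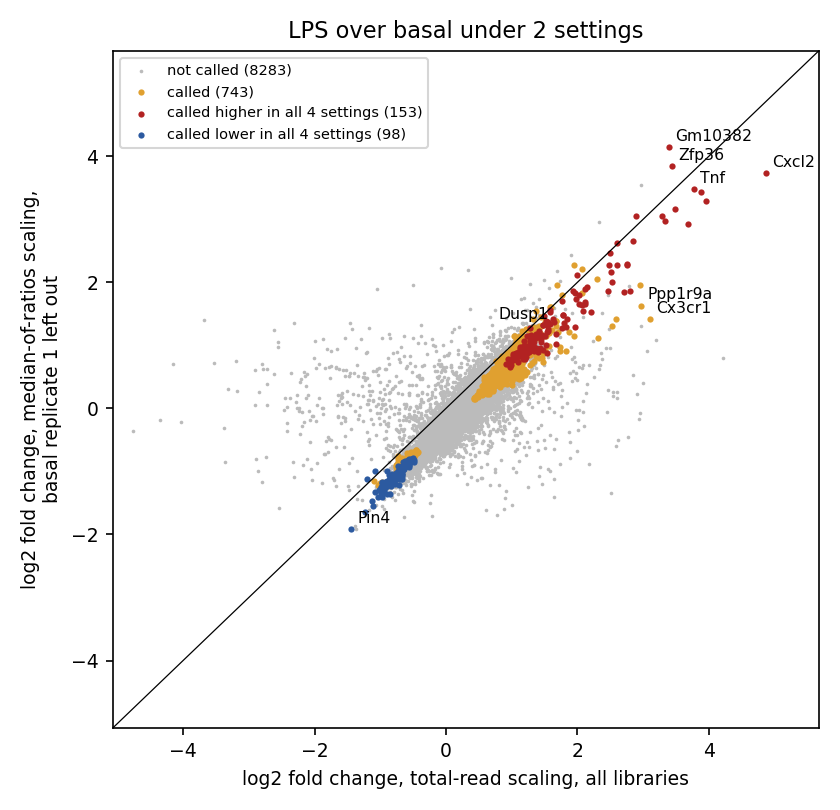
Log2 fold change of each tested gene, LPS over basal, with total-read scaling and all libraries (x axis) and with median-of-ratios scaling without basal replicate 1 (y axis), with the line of equal values. The called genes lie mostly below the line, Cx3cr1 (3.11 and 1.41) and Ppp1r9a (2.97 and 1.63) far below it, while Zfp36 (3.45 and 3.84) and Dusp1 (0.71 and 1.32) lie above it.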

How the data were processed

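The deposited values are counts per 1000000 reads of the library (CPM) with 1 added by the authors, as read from the values themselves. For the lower values of each library, 1 less than the value times the library's reads gives whole reads within 0.1. The highest values were not checked in this way, and the library's reads were estimated from the same values. Per the labels' protocols, RAW 264 cells were treated, given cycloheximide, and extracted for poly(A) mRNA and footprints, sequenced on an Ion PGM. The aligner, genome build, annotation and use of strand are not given in any source used here, so that reads of antisense or overlapping genes and of near-identical copies cannot be told apart. The 9621 listed genes, 9521 of them with a symbol, hold 97.4% to 98.9% of each library's reads, and each reaches a deposited value of at least 16.0 in some library.

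Genes of 4.87 CPM or more (10 reads at the median depth of the 6 mRNA libraries) in 2 of these libraries were tested on log2(CPM + 1) with limma 3.58.1 (R 4.3.3), with a trend in the variance, over LPS, basal and LPS+DEX, treatment as the only factor and Benjamini-Hochberg adjustment over all 9277 genes, called at an adjusted p under 0.05. This scale understates the change of genes with few reads. Errors after ± are standard errors of the log2 fold change unless given as SD. edgeR was not used, because the deposited values are not counts, and limma-voom on the recovered reads was an alternative. The fit was tested on simulated data. Footprints were fitted the same way. The other alternatives were median-of-ratios scaling, other pseudocounts and filters, the replicate block, the 4 libraries alone, and leaving out each library.

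Named genes are the 20 highest and 20 lowest called genes with separate groups and at least 10 reads on average in the higher group, a fixed set of LPS response genes, the 4 largest called changes of each gene list, and the 15 most stable genes in each direction over 4 settings. Other genes are named as list members, and a few members of the lists are not reported here. Members, lists and settings were chosen with earlier results of these data known. Promoters are those of RefSeq, and the κB and CArG forms were searched on both strands, as were TATAAA, the AP-1 motif TGANTCA, the CREB motif TGACGTCA and the ETS motif CCGGAAG.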

Additional observations from a re-analysis of the deposited data

How the results depend on the processing

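None of the 994 calls changed direction under any alternative run, but their number moved. With median-of-ratios scaling 184 were higher and 317 lower (501 in all), and 347 higher and 429 lower with basal replicate 1 also left out. The 4 compared libraries alone gave 241 and 69 (310 in all), the replicate block 337 and 53 (390 in all), limma-voom on recovered reads 355 and 109 (464 in all), and a filter of 50 reads 1155 and 235. Other pseudocounts and no filter kept the counts within 1.5 times. Leaving out 1 library at a time gave 6 to 1694 higher, 0 to 485 lower and 6 to 2179 in all, with the lowest numbers without LPS replicate 2 and the highest without basal replicate 2, and the cause was not tested. Of the 165 named genes tested, 109 kept their side of the threshold with median-of-ratios scaling, 134 without basal replicate 1, 97 under the block, 113 with limma-voom and 21 and 28 without an LPS library. The labels do not say whether same-numbered replicates were handled together, so the replicate block was kept as an alternative. Deviations of same-numbered LPS and basal libraries correlated at -0.0953 over 9277 genes, which cannot decide whether the samples were paired. With 2 libraries in each group and 1475120 to 2529666 reads a library, changes of genes near 3 reads are not detectable at this depth. The planned comparison with protein length was not run.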

Other observations

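Of the genes called in all 4 settings, 45 of the 153 higher and 50 of the 98 lower stood on a gene list, and further families were put together after the values had been seen, so that their counts are descriptions only. Sm and LSm proteins include the ring-forming cores of spliceosomal particles. Of 21 members of this family 6 were called lower, all in all 4 settings, and none higher. Snrpd1 had 151 and 115 CPM with LPS, against 239 and 286 CPM in basal cells, and Snrpg had 122 and 115 CPM with LPS, against 213 and 209 CPM in basal cells. Snrpb, a larger member of the same ring, had 459.8 and 557 CPM with LPS, against 442 and 443 CPM in basal cells, and was not called. Of 6 S100 calcium-binding proteins 4 were called lower and none higher. S100a4, which binds myosin, had 635 and 633 CPM with LPS, against 1121 and 1160 CPM in basal cells, a log2 fold change of -0.85 ± 0.12 (limma, adjusted p = 0.0195). Of 6 prefoldin subunits, which hand nascent actin and tubulin to the CCT chaperonin, 3 were lower (Pfdn1, Pfdn2 and Pfdn5) and only Pfdn1 in all 4 settings.

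Socs3, a feedback inhibitor of cytokine receptor signalling, was the 1 of 5 SOCS genes called, with 19.5 and 34.7 CPM with LPS, against 2.71 and 4.87 CPM in basal cells, a log2 fold change of 2.54 ± 0.37 (limma, adjusted p = 0.0205). Of the PIM kinases Pim1 was called and Pim3 (0.73) was not.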
